A study of Homo sapiens with 6 samples.

Results

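Interferon-stimulated genes are the genes that cells switch on when they detect viral or misplaced nucleic acid, or when a neighbouring cell does. The 46 genes described here were chosen by name, from a list of sensors, transcription factors, modifying enzymes and antiviral effectors, and 43 of them were among the 13271 genes of the deposited table. IFI27, BST2 and XAF1 were not analysed here. All 43 reached 1 in 3 or more libraries, the filter on low values, and 12866 genes did so in all.

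The cells were the human bladder cancer line 5637, an established urothelial line grown in DMEM/F-12 medium with fetal bovine serum. In the control group they received an empty vector, and in the MAT1A group a plasmid that expresses MAT1A, the liver-type enzyme that makes S-adenosylmethionine. Both groups were therefore exposed to plasmid DNA and to Lipofectamine 3000, and RNA was collected 48 h after transfection, with 3 libraries per group. No untransfected cells were analysed here, so how far either group lay from resting cells is not known. Values of a gene are always given in the order of libraries 1, 2 and 3 of a group. The single comparison asks which transcripts differed between MAT1A and empty vector.

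Type I and type III interferons bind receptors that activate the kinases JAK1 and TYK2. These phosphorylate STAT proteins, among them STAT2, which join IRF9 and bind a DNA element, the interferon-stimulated response element, in the promoters of responsive genes. Cytosolic sensors of RNA and DNA act a step earlier, through IRF3 and IRF7, to induce the interferon genes themselves. Lipid-delivered plasmid DNA is a known trigger of this pathway in many cell types.

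The libraries held between 17.4 and 21.6 M reads, and values are reads on a CPM-like scale, where 1 unit is close to 1 read in 1 M. MAT1A itself was 0.253 to 4.54 in the control libraries and 1805 to 1917 in the MAT1A libraries, as the labels state. All 10 epithelial and urothelial markers looked for were listed, and their summed value was 11064 to 11306 in control and 11579 to 12716 in MAT1A libraries. They did not move alike: limma called 4 higher in MAT1A (CDH1, KRT5, KRT8 and KRT19) and 2 lower (GATA3 and KLF5). Their median log2 change was 0.07. Of the 6 fits that each left out 1 library, KRT8 kept its call in 2 and KRT19 in 1. CDH1, KRT5, GATA3 and KLF5 kept theirs in all 6. Of 10 leukocyte markers only LYZ was listed, at 0.0466 to 1.66, and the plasmacytoid dendritic cell genes CLEC4C and IL3RA were not. The 12 skeletal muscle markers summed to 453, 146 and 89.998 in control 1, 2 and 3 and to 44.2 to 89.5 in the MAT1A libraries. These markers moved with the group as well as with control 1: limma called 10 of the 12 lower in MAT1A (median log2 change -1.63), and 7 of them also without control 1 (median of the 12 then -0.96). Of these 10, DESeq2 on reads recovered from the values called only MYH4 (adjusted p = 0.0488). The groups overlapped in MYH1, MYH2, TNNT3 and MYLPF. The 5 fibroblast markers listed of 9 summed to 203 to 320 in control, highest also in control 1, and to 176 to 188 in MAT1A libraries. Of the 4 tested, limma called COL1A1 lower, also without control 1, but DESeq2 did not (adjusted p = 0.117). Of 4 endothelial markers only VWF was listed, at 0.579 to 0.918 in control and 0.755 to 1.13 in MAT1A libraries.

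The response element can be read directly in the members' promoters, and the stretches below show it in 3 genes that fell and 3 that were not called. They come from RefSeq promoter windows (build GRCh38.p14), which run from 250 bases before to 50 bases after an annotated start. Each line covers bases -170 to -61 before the start, read 5′ to 3′ on the gene's strand. Capitals mark matches to the element's core, taken as GAAA, 2 bases of any kind and GAAA again, which on the other strand reads TTTC, 2 bases and TTTC. The 6 genes were picked after their values were seen.

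IFIT1, chr10:89392453-89392562, plus strand: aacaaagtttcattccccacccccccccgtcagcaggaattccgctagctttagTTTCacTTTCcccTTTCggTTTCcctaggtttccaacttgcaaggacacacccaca
IFI6, chr1:27672253-27672362, minus strand: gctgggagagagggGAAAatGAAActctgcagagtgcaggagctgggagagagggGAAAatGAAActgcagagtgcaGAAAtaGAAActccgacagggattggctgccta
IFI44L, chr1:78620278-78620387, plus strand: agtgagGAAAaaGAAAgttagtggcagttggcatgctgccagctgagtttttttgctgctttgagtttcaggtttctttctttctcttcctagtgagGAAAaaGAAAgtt
ISG15, chr1:1013327-1013436, plus strand: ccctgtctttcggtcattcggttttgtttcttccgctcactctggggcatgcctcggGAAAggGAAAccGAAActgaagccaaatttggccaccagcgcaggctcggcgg
OAS3, chr12:112938304-112938413, plus strand: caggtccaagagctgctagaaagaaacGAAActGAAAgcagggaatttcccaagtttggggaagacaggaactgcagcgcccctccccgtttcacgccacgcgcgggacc
SAMD9, chr7:93118040-93118149, minus strand: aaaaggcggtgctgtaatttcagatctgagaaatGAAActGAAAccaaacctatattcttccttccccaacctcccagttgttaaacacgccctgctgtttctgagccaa

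IFIT1 and ISG15 each held 2 matches that lay close together, IFI6 held 3 and IFI44L 2 further apart, and OAS3 and SAMD9 held 1 each in the stretch shown. Other members had matches in the same stretch, not shown. RSAD2 and IFIT3, which fell, held 1 and 2, and IFIH1 and HERC5, not called, held 2 and 3. Of the 37 members with a RefSeq window, 23 (62.2%) had such a match on either strand in at least 1 window, against 4.38% of all 27305 genes in the promoter table and 3.98% of the 10043 tested genes with a window. The match was found in 8 of 11 members that fell and in 13 of 23 that were not called. The motif TTCNNNGAA, the core of the gamma-activated site, reads the same on both strands and was found in 5 of those 11 and in 3 of those 23, against 8.48% of tested genes. A match describes the letters in this window only. DHX58, IRF2, IRF3, IRF7, USP18, IFIT2, OAS2, OASL and IFITM2 had no window in the table.

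In the MAT1A libraries 15 of the 43 members were lower and 0 were higher, and 28 were not called (limma with an intensity trend, Benjamini-Hochberg adjusted p under 0.05). At an unadjusted p under 0.05 limma had 19 members lower and 1, SAMD9, higher, and neither edgeR nor DESeq2 called a member higher. Over all tested genes 7.4% were called lower and 4.01% higher. The members and the lists below were chosen with earlier results of these data known, so shares set beside each other describe them and test nothing. The members' median log2 change was -0.20, against 0.004 for all tested genes, and 32 of the 43 lay below 0. In 14 members all 3 MAT1A values were below all 3 control values, where 15.6% of tested genes showed this, and in 1 (IRF3) they were all above, against 14.7%. Changes are differences of log2(value + 1), which shrinks those of genes with low values. Whether the 3 libraries of a group came from separate cultures is not stated, and p-values then reflect only the spread between them, which may be technical. In bulk RNA, fewer cells expressing a gene and less of its RNA per cell cannot be told apart.

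The count of 15 depended on the libraries used, and so did the share of all genes called lower. The members' count was 9 without control 2 (5.67% of all tested genes lower) and 8 without control 3 (4.16%). It was 15 without control 1 (4.33%), of which 12 were among the original 15, and DDX58, OAS3 and IFITM1 were gained. Without MAT1A 1 it was 11 (5.65%). Without MAT1A 2 and MAT1A 3 it was 15 and 14 (6.52% and 7.72%). OASL and RSAD2 did not pass the filter in the 3 fits without a control library and so were not tested there. IRF1, IRF7, IFIT1, IFIT2, MX1, IFI6 and IFI44 were called whichever library was left out. On reads recovered from the values, edgeR's quasi-likelihood test called the same 15 lower (7.34% of all genes) and DESeq2 called 12 of them (4.96%). With the replicate number as a block 17 members were called lower, against 10.4% of all genes.

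**Figure D1:**
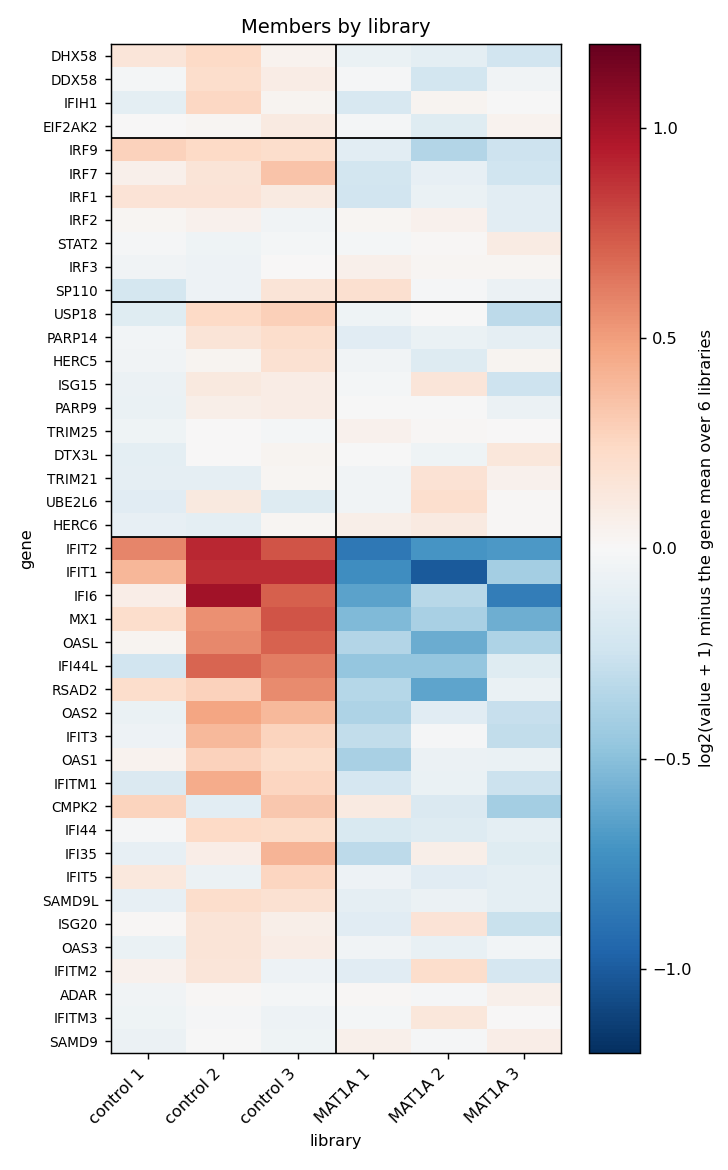
Each row is 1 of the 43 tested members, each column 1 library; colour gives log2(value + 1) minus the gene's mean over the 6 libraries (red above, blue below), with black lines between the groups and between sensors, transcription factors, modifying enzymes and effectors (top to bottom). The strongest contrasts lie among the effectors from IFIT2 to RSAD2, and control 1 is paler than control 2 and control 3 in most of them.

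The control libraries were not alike in these genes. Control 1 had the lowest control value for 30 of the 43 members and for 13 of the 15 that fell. Its median deviation from the members' means was -0.04 on the log2 scale, against 0.15 in control 2 and 0.16 in control 3 and -0.07 to -0.12 in the MAT1A libraries. For IFI44L control 1 stood at 0.409 times the mean of control 2 and 3, for OASL at 0.531 and for IFI6 at 0.538, while IRF1 stood at 1.02 and IRF9 at 1.05. This is also the library with the most muscle and fibroblast transcripts, and muscle markers were lower in MAT1A libraries with and without it, as the members were; their part in these results was not tested. Without control 1 the changes of several effectors were larger, for example -1.46 in place of -1.2 for IFI6 and -1.01 in place of -0.72 for IFI44L.

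Antiviral effectors held the largest falls. Of 22 tested effectors 11 fell (50%, against 7.4% of all tested genes), 0 rose and 11 were not called. Their median log2 change was -0.33.

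The IFIT proteins bind viral RNA that lacks the host's cap methylation, or the factors that translate it, and the 4 IFIT members lie close together on chromosome 10. IFIT2 (89283694 to 89309276 of GRCh38, plus strand) was 7.58, 9.75 and 8.69 with empty vector and 2.16, 2.52 and 2.56 with MAT1A. Every MAT1A library was below every control library, and the log2 change was -1.50 ± 0.11 (SE; limma adjusted p = 4.5e-08). IFIT1 was 2.87, 4.45 and 4.44 with empty vector and 0.755, 0.463 and 1.21 with MAT1A, from 230 and 49 reads in all. Its log2 change of -1.45 ± 0.16 (SE; adjusted p = 1.4e-05) grew to -2.2 with a pseudocount of 0.1, and by the ratio of means it was 4.84-fold lower. IFIT3 was 5.91, 8.49 and 7.72 with empty vector and 4.90, 6.17 and 4.90 with MAT1A. The groups overlapped, since MAT1A 2 exceeded control 1, and the log2 change of -0.40 (adjusted p = 0.0379) was lost without control 2, control 3, MAT1A 1 or MAT1A 3 and in DESeq2 (adjusted p = 0.0624). IFIT5 fell short of the threshold at 4.26 ± 0.60 and 3.54 ± 0.12 (SD, n = 3; log2 change -0.21, adjusted p = 0.237). How reads common to such similar genes were counted is not stated, so these values are uncertain. IFIT2 overlaps exons of LIPA, on the other strand, by 65 bases; LIPA had a log2 change of 0.07. IFIT2 also shares 356 exon bases on the same strand with AL353751.1, not analysed here, so its reads are uncertain too.

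MX1 encodes a dynamin-like GTPase that blocks viral nucleocapsids. It lies on chromosome 21 and was 11.4, 14.8 and 17.1 with empty vector and 6.47, 7.20 and 6.15 with MAT1A, a 2.19-fold lower mean without overlap (log2 change -1.01 ± 0.11, SE; adjusted p = 1.1e-05). IFI6, which encodes a small membrane protein that limits flavivirus replication, was 5.85, 12.1 and 9.70 with empty vector and 3.18, 4.16 and 2.66 with MAT1A. The control values spread more than 2-fold, yet all lay above the MAT1A values (log2 change -1.2 ± 0.18, SE; adjusted p = 0.000238). RSAD2, the gene of viperin, which makes a chain-terminating nucleotide, was near the bottom of the measured range. Its values were 1.26, 1.36 and 1.88 with empty vector and 0.539, 0.257 and 0.839 with MAT1A, from 88 and 33 reads (log2 change -0.71, adjusted p = 0.00851; -1.40 with a pseudocount of 0.1). RSAD2 and OASL reached 1 in control libraries only, so they passed the filter through the group in which they were high; without the filter both were still called (adjusted p = 0.00881 and 0.00205).

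The OAS enzymes make 2′-5′ oligoadenylates that activate the nuclease RNase L, and OASL is a relative without that activity. The 4 genes lie on chromosome 12. OASL was 1.49, 2.63 and 2.99 with empty vector and 0.916, 0.617 and 0.886 with MAT1A (log2 change -0.88, adjusted p = 0.00191; -1.41 with a pseudocount of 0.1). OAS2 was 9.41, 14.3 and 13.5 with empty vector and 7.49, 9.05 and 8.07 with MAT1A, with control 1 close above the highest MAT1A value. Its log2 change of -0.53 (adjusted p = 0.00810) was not called without control 3 (adjusted p = 0.0551). OAS1 was 5.91, 7.13 and 6.85 with empty vector and 4.15, 5.40 and 5.36 with MAT1A (log2 change -0.36, adjusted p = 0.0396), a call lost without control 2, control 3 or MAT1A 1 and in DESeq2 (adjusted p = 0.123). OAS3, by far the most abundant of the 4, was 104.2, 123 and 118 with empty vector and 107, 104.1 and 108 with MAT1A. These groups overlapped and the log2 change of -0.11 did not pass (limma adjusted p = 0.158, and 0.0592 with the replicate block). Without control 1 OAS3 was called lower (log2 change -0.18, limma adjusted p = 0.0153). It was also called lower with the trend on exon length and GC content removed and the replicate block (limma adjusted p = 0.0123).

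IFI44 and IFI44L are neighbouring, related genes on chromosome 1. IFI44 was 27.7, 33.1 and 32.6 with empty vector and 24.5, 25 and 25.5 with MAT1A, a modest fall without overlap (log2 change -0.30, adjusted p = 0.00572). IFI44L was 1.43, 3.64 and 3.38 with empty vector and 1.08, 1.08 and 1.59 with MAT1A, so that MAT1A 3 exceeded control 1. Its log2 change was -0.72 (adjusted p = 0.0235), and the call was lost without control 2, control 3 or MAT1A 1.

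The remaining effectors were not called. ADAR, which edits adenosine to inosine in double-stranded RNA, had the highest value of all members, 366, 380.0 and 370 with empty vector and 380.4, 374 and 393 with MAT1A (log2 change 0.04, adjusted p = 0.447). SAMD9, a restriction factor of poxviruses, was 105 ± 2.76 in control and 111 ± 3.67 in MAT1A libraries (SD, n = 3; log2 change 0.08, adjusted p = 0.16). After removal of the trend on exon length and GC content within libraries, SAMD9 was the 1 member called higher (log2 change 0.15, adjusted p = 0.00475). Of the IFITM genes, whose products hinder virus entry at membranes, IFITM3 stood at 64.7 ± 0.91 and 68.6 ± 4.26 (SD, n = 3). IFITM1 was 2.81, 4.85 and 4.15 with empty vector and 2.75, 3.08 and 2.61 with MAT1A, with control 1 inside the MAT1A range. Its log2 change of -0.35 had an adjusted p of 0.113, and of 0.0434 with the replicate block. IFITM1 and IFITM2 share 351 exon bases in the annotation on the same strand, so their reads are uncertain. CMPK2, IFI35, SAMD9L, ISG20 and IFITM2 had log2 changes between -0.31 and -0.08, with adjusted p from 0.191 to 0.731.

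**Figure D2:**
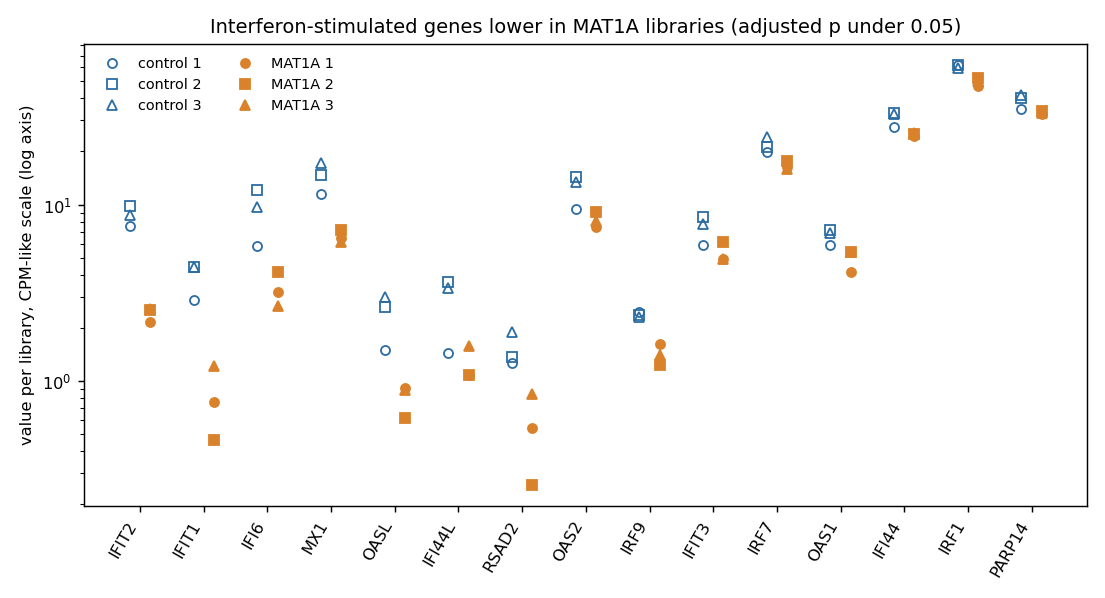
Values of the 15 members called lower, on the deposited CPM-like scale (log axis), with 1 point per library: open blue symbols control, filled orange symbols MAT1A, and the symbol shape gives the replicate number. Genes run in order of the change of log2(value + 1), from IFIT2 (-1.50) on the left to PARP14 (-0.21). By the ratio of means IFIT1 fell more than IFIT2. Only IFIT3 and IFI44L overlap between groups.

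Among the transcription factors, 3 of 7 fell (42.9%, against 7.4% of all tested genes) and 0 rose. IRF1, which is itself induced by interferons and by NF-κB and then activates interferon-stimulated genes, was 61.8, 61.9 and 59.4 with empty vector and 46.7, 52.0 and 50.4 with MAT1A. The control values were within a narrow range and none overlapped (log2 change -0.29 ± 0.05, SE; adjusted p = 0.000459). IRF1 overlaps exons of C5orf56, on the other strand, by 1716 bases; the level of C5orf56 was 1.95 ± 0.40 and 2.64 ± 0.38 (SD, n = 3). IRF7, the regulator that amplifies type I interferon production, was 19.9, 21.3 and 24.3 with empty vector and 16.2, 17.7 and 15.9 with MAT1A (log2 change -0.37, adjusted p = 0.00347). IRF9, a DNA-binding partner of STAT2, was 2.47, 2.38 and 2.32 with empty vector and 1.62, 1.23 and 1.40 with MAT1A (log2 change -0.49, adjusted p = 0.0132). It lost its call without control 1 (adjusted p = 0.0565) and in DESeq2. In GENCODE release 29, IRF9 shares 1838 exon bases with another protein-coding gene on the same strand, so its reads are uncertain.

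STAT2 and IRF3, which are present before induction, did not pass. STAT2 was 41.4, 40.2 and 41.1 with empty vector and 41.0, 42.1 and 44.8 with MAT1A (log2 change 0.06, adjusted p = 0.473). IRF3 was 56.5, 55.8 and 58.5 with empty vector and 61.0, 59.3 and 59.3 with MAT1A; the groups did not overlap, but the log2 change of 0.07 was not called (adjusted p = 0.283). IRF3 overlaps exons of BCL2L12, on the other strand, by 734 bases, and BCL2L12 had a log2 change of 0.05. IRF2, an antagonist of IRF1 at shared sites, and SP110, a nuclear body protein gene, had log2 changes of -0.03 and 0.07.

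None of the 4 RNA sensors was called by the main limma fit, edgeR or DESeq2. All 4 lay below 0, and 2 (DDX58 and DHX58) had an unadjusted limma p under 0.05. DDX58, the gene of RIG-I, was 39.9, 47.0 and 43.1 with empty vector and 40.2, 34.5 and 39.4 with MAT1A. The groups overlapped only through control 1, and the log2 change of -0.18 had a limma adjusted p of 0.0755. DDX58 was called lower with the replicate block (limma adjusted p = 0.0371) and without control 1 (log2 change -0.24, limma adjusted p = 0.0466). EIF2AK2, the gene of the kinase PKR, was 114, 116 and 122 with empty vector and 112, 102 and 117 with MAT1A (log2 change -0.09, adjusted p = 0.240). DHX58, a regulator of RIG-I signalling, was low at 2.30 ± 0.23 and 1.71 ± 0.15 (SD, n = 3), without overlap (log2 change -0.29, adjusted p = 0.136). IFIH1, the gene of the long-RNA sensor MDA5, was 13.6 ± 1.86 and 12.4 ± 1.09 (log2 change -0.11, adjusted p = 0.466).

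Of 10 genes of the ISG15, ubiquitin and ADP-ribosylation machinery 1 fell and 0 rose, with a median log2 change of -0.002. That is 10% lower, close to the 7.4% of all tested genes. The exception was PARP14, an ADP-ribosyltransferase gene, at 35.0, 40.1 and 41.6 with empty vector and 32.7, 34.0 and 33.2 with MAT1A (log2 change -0.21, adjusted p = 0.0258). That call was lost without control 2, control 3 or MAT1A 1. ISG15 encodes the ubiquitin-like modifier itself and was 45.2, 51.7 and 50.5 with empty vector and 46.7, 52.8 and 39.8 with MAT1A, with overlapping groups (log2 change -0.09, adjusted p = 0.508). UBE2L6, its conjugating enzyme, HERC5, its ligase, and USP18, which removes it, had log2 changes of 0.12, -0.11 and -0.25 with adjusted p of 0.452, 0.482 and 0.232. TRIM25, a ubiquitin ligase that acts on RIG-I, was 226, 234 and 230.2 with empty vector and 242, 235 and 234 with MAT1A (log2 change 0.04, adjusted p = 0.401). DTX3L, a ubiquitin ligase, and PARP9, its ADP-ribosyltransferase partner, sit head to head on chromosome 3 and share 217 exon bases. DTX3L was 51.7, 56.1 and 57.1 with empty vector and 55.7, 54.1 and 61.6 with MAT1A, and PARP9 was 20.3 ± 1.36 and 19.6 ± 0.54 (SD, n = 3). HERC6, a relative of HERC5, had the highest log2 change of all members, 0.13, and TRIM21, the gene of a cytosolic antibody receptor, had 0.12, with adjusted p of 0.260 and 0.320.

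**Figure D3:**
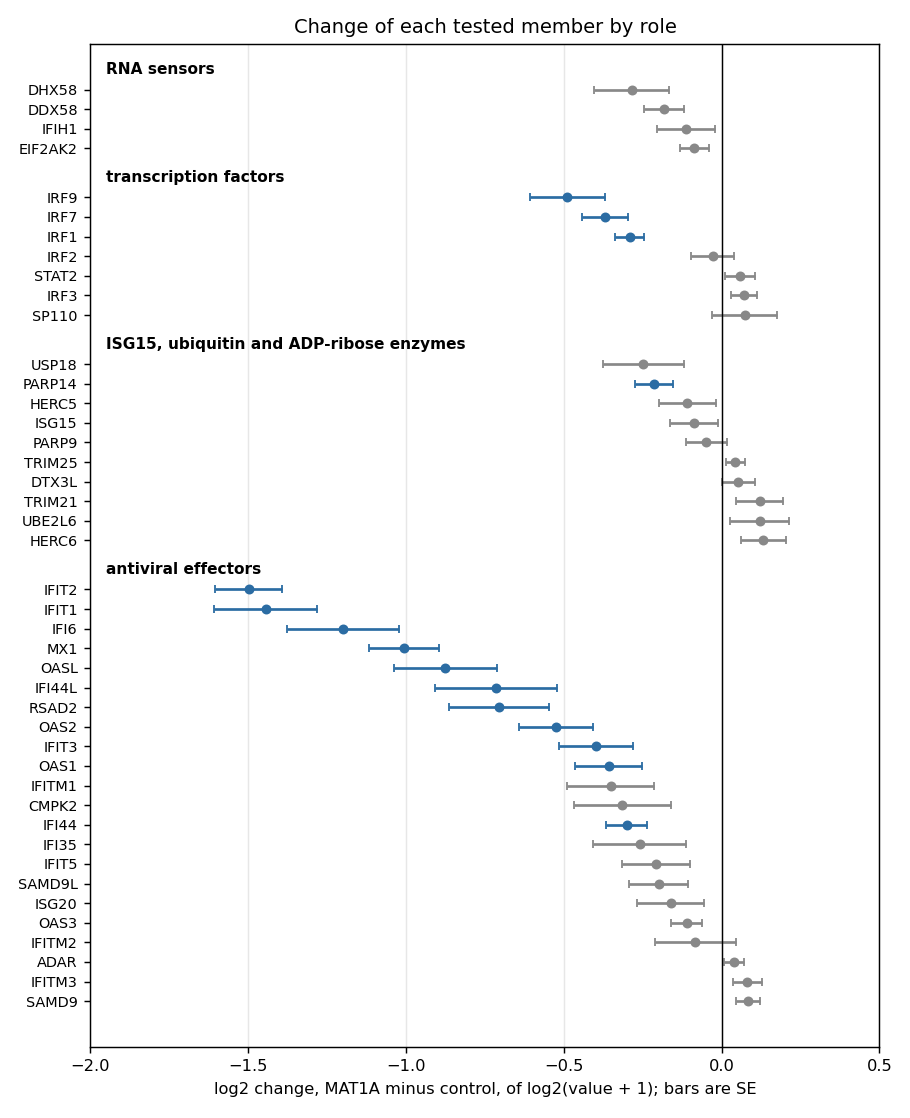
Log2 change (MAT1A minus control, on log2(value + 1)) of the 43 tested members by role; points are estimates, bars their SE from limma, blue points were called lower and grey points were not called. The 11 blue effectors reach from -0.30 (IFI44) to -1.50 (IFIT2), while 9 of 10 genes of the ISG15 and ubiquitin class are grey and lie between -0.25 and 0.13.

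Counts and changes by level were as follows, with no test between levels. The members were divided by their mean value over the 6 libraries. Of 12 members under 5, 5 fell and all 12 lay below 0, with a median log2 change of -0.33. Of all 2315 tested genes of that level 1270 lay below 0 and 6.39% were called lower. Among the 5, OASL and RSAD2 reached 1 in control libraries only, and IFIT1 in the control libraries and 1 MAT1A library. Of 17 members from 5 to under 25, 7 fell and the median was -0.16, against 7.63% of genes called lower. Of 14 members at 25 or more, 3 fell (IRF1, IFI44 and PARP14) and 7 lay below 0, with a median of -0.02, against 7.62%. The members that fell at the highest level class changed by -0.30 to -0.21 on the log2 scale, and none of the falls beyond 0.4 was in a gene with a mean of 25 or more. Per kilobase of exon, ISG15, IFITM3, ADAR and TRIM25 led the control libraries with 52.2, 48.0, 38.4 and 24.2, and none of these 4 was called. IFIT1, RSAD2 and IFI44L lay at 0.850, 0.311 and 0.275 on that per-kilobase scale in control.

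**Figure D4:**
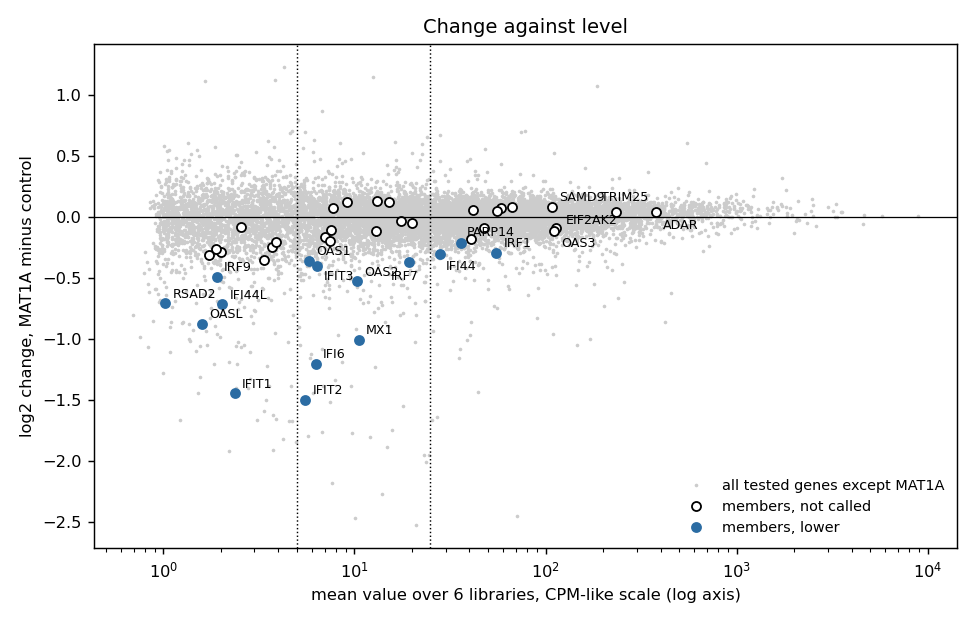
Log2 change (y axis) against the mean value over 6 libraries on the CPM-like scale (x axis, log), with all tested genes except MAT1A in grey, called members in blue and members not called as open circles; dotted lines mark values of 5 and 25. The members with falls beyond 0.5 lie between RSAD2, near 1, and MX1, near 10, and the 14 members to the right of 25 stay between -0.30 and 0.08.

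The genes upstream of the members were examined in 3 lists and further interferon-stimulated genes in another. Of 9 interferon genes looked for, 3 were listed (IFNB1, IFNL1 and IFNE), all at low values; of the 2 tested, 1 fell and 0 rose. IFNB1, the type I interferon gene that cells other than leukocytes mainly induce, was 0.976, 1.31 and 1.16 with empty vector and 0.162, 0.103 and 0 with MAT1A, from 67 reads in control and 5 in MAT1A in all. It did not pass the filter of at least 1 in 3 libraries and so was not tested; with no filter, an alternative in which it is named because of its value, its log2 change was -0.98 ± 0.14 (SE; adjusted p = 0.000255). IFNL1, a type III interferon gene, was 1.26, 1.82 and 1.21 with empty vector and 0.431, 0.411 and 0.186 with MAT1A, from 83 and 20 reads (log2 change -0.85, adjusted p = 0.00118). It reached 1 in control libraries only, and could not be tested under the filter when a control library was left out. IFNE was 1.65 ± 0.46 and 2.05 ± 0.44 (SD, n = 3), a difference that was not called (adjusted p = 0.398).

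Of 15 tested receptor, kinase and feedback genes 2 fell (13.3%, against 7.4% of all tested genes) and 0 rose. At an unadjusted limma p under 0.05 these counts were 5 and 0, and edgeR gave 2 and 0. IFNAR1, a chain of the type I receptor, was 92.2, 88.1 and 90.05 with empty vector and 84.4, 79.7 and 83.6 with MAT1A (log2 change -0.12, adjusted p = 0.0436). SOCS3, a feedback inhibitor of JAK signalling, was 38.5, 38.8 and 37.5 with empty vector and 35.4, 32.9 and 32.3 with MAT1A (log2 change -0.18, adjusted p = 0.0238). The list's count was 0 without control 2 or control 3 and in DESeq2, and 1 without control 1 or any MAT1A library. Without control 1 neither IFNAR1 nor SOCS3 was called, and the 1 gene called was IFNGR2, a chain of the type II receptor (adjusted p = 0.0462), named here for that value. JAK1 and TYK2 had log2 changes of 0.02 and -0.02.

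Of 20 tested genes of nucleic acid sensing 2 fell and 0 rose. That is 10% lower, close to the 7.4% of all tested genes. At an unadjusted limma p under 0.05 these counts were 3 and 3, and edgeR gave 2 and 0. They were TRAF6, a signalling ubiquitin ligase gene (23.6 ± 1.19 and 19.9 ± 1.53, SD, n = 3; log2 change -0.23, adjusted p = 0.0306), and ZC3HAV1, the gene of the zinc-finger antiviral protein (96.7 ± 2.5 and 87.7 ± 4.47; -0.14, adjusted p = 0.0371). The count was 0 without control 2, control 3 or MAT1A 2 and in DESeq2, and 1 without control 1 or MAT1A 1. CGAS, the sensor of cytosolic DNA, was 44.2 ± 2.38 and 42.4 ± 1.18 (adjusted p = 0.513), and MAVS, the adaptor of the RNA sensors, was 98.0 ± 3.46 and 99.8 ± 4.5 (adjusted p = 0.739).

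Of 43 further interferon-stimulated genes tested, 6 fell (14.0%, against 7.4% of all tested genes) and 2 rose, where 4.01% of all genes rose, and the median log2 change was 0.007. With the replicate block the counts were 7 and 5, where 10.4% of all genes were lower and 7.57% higher. MX2, the paralogue of MX1, was 4.65, 8.44 and 6.27 with empty vector and 2.64, 2.67 and 2.42 with MAT1A (log2 change -1.03 ± 0.14, SE; adjusted p = 0.000135). Here too control 1 was the lowest control and the groups did not overlap. SP100, a nuclear body gene, was 42.2 ± 1.03 and 33.3 ± 1.69 (SD, n = 3; log2 change -0.33, adjusted p = 0.000316). GBP3, a guanylate-binding protein gene, was 17.9 ± 0.63 and 13.2 ± 0.78 (-0.42, adjusted p = 0.000641). NMI, an interactor of STAT proteins, was 24.9 ± 0.85 and 29 ± 0.52 (0.21, adjusted p = 0.0159), and WARS, a tryptophanyl-tRNA synthetase gene that interferon induces, was 104.9 ± 1.43 and 115 ± 1.5 (0.13, adjusted p = 0.0205). MX2, SP100 and GBP3 were called whichever library was left out; neither NMI nor WARS was called without control 1 or control 3, nor WARS without MAT1A 1.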

How the data were processed

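RNA of 6 libraries of 5637 cells, 3 per group, was sequenced 48 h after transfection; groups and replicate numbers came from the titles. The authors deposited a signal, reads per gene on a CPM-like scale with column sums of 997732 to 1015443, and no raw counts. Alignment and counting tools are, per the submitters' processing notes, STAR 2.6.0c and featureCounts, with edgeR and build hg38 also named; the annotation and settings are not given. Every value (100%) was a whole multiple of 1 step per column to within 0.001 reads, which gave the recovered reads. A floor of 3 reads lay at 0.140 to 0.172, a limit from counting error alone, as reads lacking molecular identifiers can be copies of 1 molecule. The lowest row held 25 reads in all, so rows had been removed before deposit.

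The test planned for this case was used: limma 3.58.1 (R 4.3.3) on log2(value + 1), on the 12866 genes that reached 1 in 3 or more libraries. Alternatives run beside it were edgeR 4.0.16 and DESeq2 1.42.0 on recovered reads, DESeq2 size factors and a pseudocount of 0.1. Further ones were no filter, a filter of at least 5, the replicate block and each library left out. A trend on exon length and GC within libraries was also removed, with and without the block. The fitting steps were tested on simulated data.

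Same-numbered libraries deviated together (correlations of 0.25, 0.18 and 0.19 for numbers 1, 2 and 3), a pairing read from the data. The main fit did not use this pairing. Only the fits with the replicate block did. Libraries of 1 group differed by more than sampling noise (chi-square per degree of freedom 1.86 to 4.37). Members and lists were chosen with earlier results of these data known. Values in every library are given for called members and for the 2 highest members not called of each role. Genes of the lists were named by smallest p (up to 3 per direction) or highest level. Some of them have values in every library and others only mean ± SD or the log2 change. Other genes were named after their values were seen. Gene positions and exon overlaps are from GENCODE release 29 (GRCh38, the same build as hg38), which held 13263 of the 13271 symbols. The kit does not mark strand, so genes that overlap on opposite strands could not be told apart.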

Additional observations from a re-analysis of the deposited data

How the results depend on the processing

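Leaving out each library in turn, the number of members called lower ran from 8 to 15. Over all genes the number called lower ran from 530 to 988 and higher from 219 to 668, against 952 and 516 with all libraries. In the lists the number lower ran from 0 to 1 for receptors and kinases and for interferon genes and from 0 to 3 for sensing adaptors, and the number higher from 0 to 6 for further interferon-stimulated genes. DESeq2 called 319 genes higher, 0 receptor and kinase genes and 0 sensing adaptors lower, and 0 further interferon-stimulated genes higher. With the replicate block 974 genes were higher, and 5 of the further interferon-stimulated genes. With the length and GC trend removed, 783 genes, SAMD9 being the 1 member, were higher and 4 receptor and kinase genes lower. With that trend removed and the replicate block, 1145 genes, 1 of them a member, were higher, as were 7 further interferon-stimulated genes, and 4 receptor and kinase genes and 4 sensing adaptors were lower. With no filter 2 interferon genes were lower, since IFNB1 was then tested, and with a filter of at least 5 the count was 0, since none was tested. That filter left 31 members, of which 10 were lower. The cause of the other shifts was not tested. Among members the block alone changed the call of DDX58 and IFITM1 only. Added to the trend removal, it changed the call of OAS3 and IFITM1 only. Scaling by DESeq2 size factors and a pseudocount of 0.1 left the same 15 members called. No result changed sign and was called under any alternative. Depth limits IFNB1, IFNL1, RSAD2, OASL and IFIT1 most, with 5 to 49 reads over the 3 MAT1A libraries.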
